A study of Mus musculus with 6 samples.

Results

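The inhibitor of apoptosis (IAP) and death receptor pathway genes were followed here as 10 rows of a table of read counts per gene symbol: Fas, Fadd, Casp8, Cflar, Ripk1, Casp2, Xiap, Birc2, Birc3 and Birc5. All 10 were found among 33924 gene rows, and all 10 passed the filter on low counts, which left 13406 genes to be tested. RNA sequencing had been done on 6 libraries of mouse myeloid leukaemia cells made by retroviral transduction with the MLL-AF9 oncogene, a fusion of the MLL and AF9 genes, so every library carried it. In 3 libraries (LSK 44, LSK 45 and LSK 46) the transduced cell was an LSK cell, a lineage-negative, Sca-1-positive and Kit-positive marrow cell of a population that includes stem cells. In the other 3 (GMP 5, GMP 11 and GMP 19) it was a granulocyte-macrophage progenitor (GMP). The labels call the material purified marrow cells, and their growth protocol describes transduced cells that were expanded in culture, injected into irradiated syngeneic C57BL/6 mice with wild-type support marrow, recovered from the marrow of moribund animals, and then cultured with SCF, IL-3 and IL-6. The study asks, by its title, how the cell of origin relates to readiness for apoptosis and to the response to LSD1 inhibition. No treatment with an inhibitor is given for any of the 6. Whether a group's libraries came from separate mice or transductions is not stated in the labels, so p-values measure the spread between these libraries only, which may be technical.

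Total counts ran from 16640929 to 33885428 per library. Every LSK marker fixed for the check (Ly6a, Kit, Mecom and Hlf) was called higher in the LSK-derived libraries, although Ly6a, which encodes Sca-1, was low at 1.83 ± 1.03 CPM against 0.255 ± 0.0840 CPM in the GMP-derived libraries (SD, n = 3 each). Ptprc, the pan-leukocyte gene CD45, averaged 242 CPM in cells derived from LSK and 387 CPM in those from GMP. Of the 8 leukaemia and myeloid progenitor markers, Kit was higher in the LSK-derived libraries, Ptprc and Fcgr3 were lower (Fcgr3 at 33.7 ± 14.1 against 163 ± 11.2 CPM), and 5 did not pass. The granule genes Mpo and Elane set GMP 5 apart, at 13.8 CPM of Mpo against 316 CPM in GMP 11 and 500.3 CPM in GMP 19, and 65.5 CPM of Elane against 815 and 1562 CPM in the same libraries. Without GMP 5, Fas, Fadd and Casp2, the genes of the 10 that were called, kept their calls (adjusted p = 0.0228, 0.0279 and 0.0230). Of 7 T and NK cell markers none was tested, and their summed level was at most 0.125 CPM in an LSK-derived and 0.147 CPM in a GMP-derived library, with Cd3e, Ncr1 and Fasl at 0 counts throughout. Cd79b was the only B cell marker of 4 to pass the filter and was higher in the LSK-derived libraries (18.1 ± 3.73 against 5.45 ± 2.07 CPM), with Ms4a1 at 0 counts. Klf1 was the only erythroid marker of 4 to pass it. Of 7 stromal and endothelial markers, 3 were tested, and Col1a2 was at 0 counts. Pdgfrb was lower in LSK-derived cells (2.63 ± 2.17 against 26.9 ± 11.6 CPM). The list's other tested genes were higher on average in LSK-derived cells but did not pass. They were Lepr (0.793 ± 0.540 against 0.220 ± 0.161 CPM) and Pecam1 (244 ± 71.4 against 156 ± 38.3 CPM), with edgeR adjusted p = 0.0991 and 0.114. That list summed to between 190 and 332 CPM in LSK-derived and between 147 and 227 CPM in GMP-derived libraries, most of it Pecam1. The part of cells expressing Pdgfrb or Cd79b in the results that follow was not tested. In bulk RNA of this kind, fewer cells of a type and less RNA per cell cannot be told apart.

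Cells can be killed from outside through death receptors of the TNF receptor family. When Fas is bound by its ligand, the adaptor FADD joins the receptor's death domain to caspase-8, which cuts and activates the executioner caspases. The caspase-8 homologue c-FLIP, encoded by Cflar, competes for the same complex. At the TNF receptor the kinase RIPK1 serves as a platform that can lead to NF-kB signalling, to apoptosis, or through RIPK3 and MLKL to necroptosis, a lytic death. The ubiquitin ligases cIAP1 and cIAP2 (Birc2 and Birc3) modify RIPK1 and hold it on the survival side. XIAP binds and blocks caspases directly and is released by the mitochondrial proteins SMAC/DIABLO and HTRA2. Survivin (Birc5) shares the IAP fold but works mainly in mitosis, and caspase-2 is activated apart from death receptors, in a complex with PIDD1 and CRADD.

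Of the 10 genes, 2 were lower and 1 was higher in the LSK-derived leukaemias at an adjusted p below 0.05, and 7 did not pass. Fas and Fadd, the receptor and its adaptor, were lower, and Casp2 was higher. None of the 4 IAP genes passed. Levels are counts per 1000000 mapped to tested genes (CPM) after TMM scaling, shown as mean ± SD where averaged (n = 3 each). A positive log2 fold change means a higher level in LSK-derived cells, and each has an approximate SE, from edgeR's quasi-likelihood test with Benjamini-Hochberg adjustment over all 13406 genes. Over all tested genes 25.7% were called, 11.8% higher and 13.9% lower, so 3 of 10 is close to that background. Likewise the groups did not overlap for 5 of the 10 genes, against 45.4% of all tested genes. Casp2 and Ripk1 lay wholly higher in the LSK-derived libraries, as did 22.5% of all tested genes, and Fas, Fadd and Xiap wholly lower, as did 22.8%. The median absolute log2 fold change of the 10 genes was 0.22, against 0.25 over all tested genes.

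The upstream sequences of the 3 genes that passed are shown because these are the genes of the 10 whose level differed past the threshold. They come from RefSeq on GRCm38.p6, run from 250 bases before the start used there to the base before the outermost annotated start, and are read 5′ to 3′ on the gene's strand. Of 5 short motifs searched on either strand, capitals mark matches to the 3 that were found in these genes. The GC box was searched for as GGGCGG, the motif that Sp1-type factors are known to bind. The box bound by the factor NF-Y was searched for as its name letters, CCAAT. The last motif was an E2F-type site, TTTCCCGC, of a kind found in cell cycle genes.
Fas promoter, chr19:34290409-34290646, plus strand: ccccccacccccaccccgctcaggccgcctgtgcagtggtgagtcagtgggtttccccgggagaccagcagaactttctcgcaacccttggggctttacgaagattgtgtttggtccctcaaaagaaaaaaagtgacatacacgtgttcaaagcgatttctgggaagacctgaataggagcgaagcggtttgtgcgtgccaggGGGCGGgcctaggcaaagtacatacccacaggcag
Fadd promoter, chr7:144582464-144582691, minus strand: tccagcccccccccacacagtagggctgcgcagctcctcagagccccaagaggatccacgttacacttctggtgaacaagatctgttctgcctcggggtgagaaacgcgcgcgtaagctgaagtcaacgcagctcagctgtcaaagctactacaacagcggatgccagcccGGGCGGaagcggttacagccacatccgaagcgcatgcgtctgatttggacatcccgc
Casp2 promoter, chr6:42264735-42264901, plus strand: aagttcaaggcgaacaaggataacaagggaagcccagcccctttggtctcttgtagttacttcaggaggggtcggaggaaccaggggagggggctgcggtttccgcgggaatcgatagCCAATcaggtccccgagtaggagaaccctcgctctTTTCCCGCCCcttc
Of the 32851 promoter windows in the table, 32.7% held the GC box, 33.8% the CCAAT box and 0.895% the E2F-type site within the 250 bases. Capitals that run on in the Casp2 sequence are an E2F-type match and a GC box that overlap. Fadd also had an E2F-type match and a further GC box that overlaps it, close to its RefSeq start and downstream of the part shown, and Casp2 a further CCAAT box there. Of the other motifs, an NF-kB-type site was found in the Birc5 window alone among the 14 windows of the 10 genes (0.356% of all windows), and another E2F-type form in none of them (0.417% of all windows). The motifs were chosen after the sequences had been read. A match is a string of letters and does not show that a factor binds.

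Fas, the death receptor gene, had 15, 38 and 20 counts in LSK 44, LSK 45 and LSK 46, against 113, 92 and 183 counts in GMP 5, GMP 11 and GMP 19. This was 0.907, 1.49 and 0.833 CPM in the LSK-derived libraries, against 4.63, 2.73 and 5.37 CPM in the GMP-derived libraries. The groups did not overlap, and Fas was low everywhere. Its libraries differed among themselves by more than those of any other of the genes (coefficient of variation 33.5% among LSK-derived and 32.0% among GMP-derived libraries). Fas was 3.89-fold lower in the LSK-derived leukaemias (1.08 ± 0.361 against 4.24 ± 1.36 CPM, log2 fold change -1.96 ± 0.36, adjusted p = 0.00984), and its call held in all 11 alternative fits. Its ligand gene Fasl had 0 counts in every library, which allows up to 0.180 CPM in the smallest library.

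Fadd, the adaptor gene, was at 22.0, 22.2 and 22.7 CPM in the LSK-derived libraries, against 25.5, 27.8 and 29.6 CPM in the GMP-derived libraries. Each LSK-derived library was below each GMP-derived one, and the LSK-derived values lay close together. The difference was 1.24-fold (22.3 ± 0.400 against 27.7 ± 2.06 CPM, log2 fold change -0.31 ± 0.09, adjusted p = 0.0418). This call sat near the threshold. It was lost without LSK 44 (adjusted p = 0.125), LSK 45 (0.0934), LSK 46 (0.111), GMP 11 (0.107) or GMP 19 (0.113), with upper-quartile scaling (0.0531) and with no filter on low counts (0.0641), in a range from 0.0258 over its alternatives. An antisense gene, Faddos, shares up to 239 bases of exon with Fadd in the GENCODE M21 annotation and has no row of that name in the table.

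**Figure D1:**
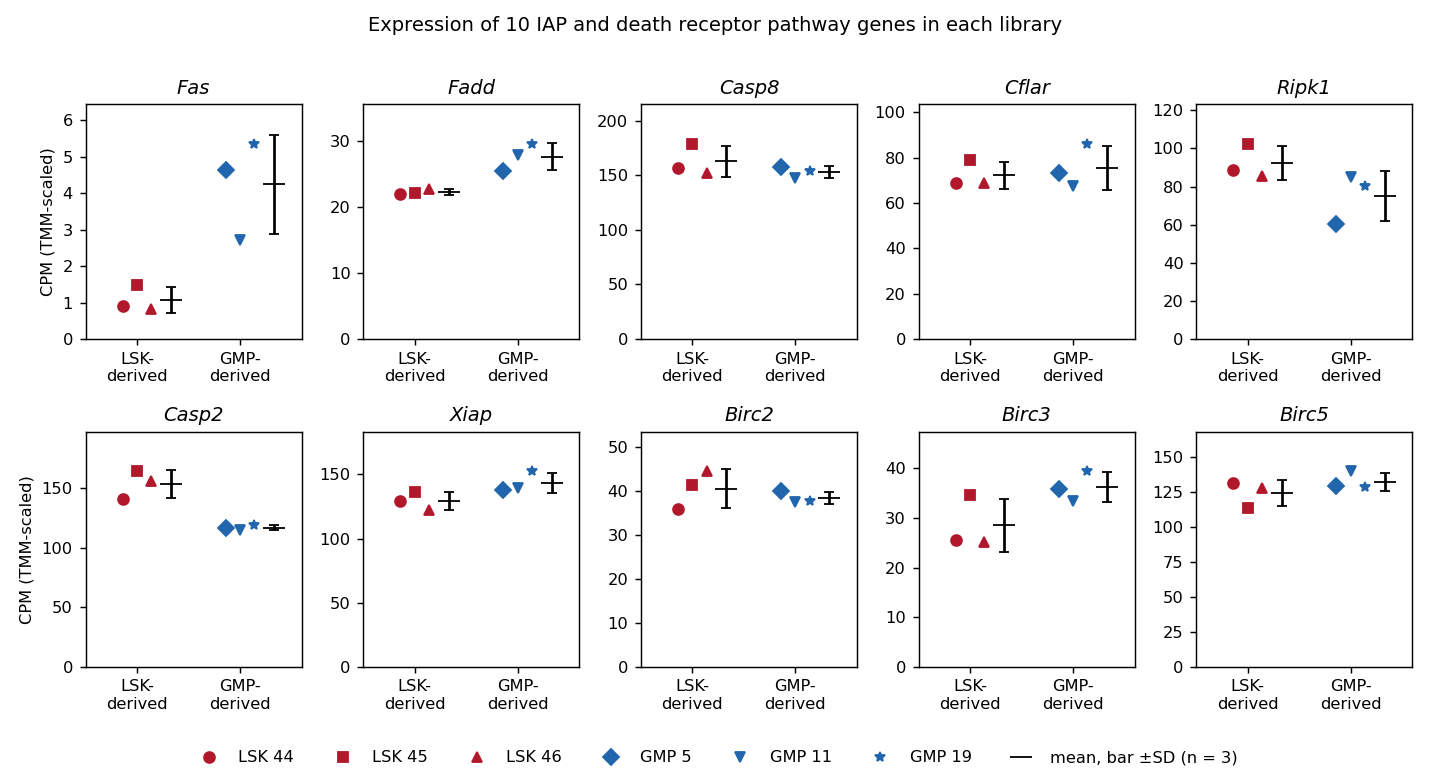
TMM-scaled CPM (vertical axis, linear from 0) of the 10 genes in each of the 6 libraries, LSK-derived in red and GMP-derived in blue, with the mean and SD of 3 libraries in black. The groups are apart for Fas, Fadd, Casp2, Ripk1 and Xiap, and overlap for Casp8, Cflar, Birc2, Birc3 and Birc5.

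Past the adaptor, Casp8 and Cflar did not pass in either direction. Casp8, the initiator caspase gene of the death receptor complex, was at 157, 179 and 152 CPM in the LSK-derived libraries, against 158, 147 and 154 CPM in the GMP-derived libraries. The groups overlapped, with LSK 45 the highest (log2 fold change 0.09 ± 0.08, approximate 95% interval -0.10 to 0.28, adjusted p = 0.440). Cflar was at 68.7, 79.1 and 69.0 CPM in the LSK-derived libraries, against 73.4, 67.4 and 86.3 CPM in the GMP-derived libraries. GMP 19 was the highest and GMP 11 the lowest of the 6 (log2 fold change -0.07 ± 0.11, interval -0.33 to 0.19, adjusted p = 0.697), and without GMP 19 the sign turned (0.041). Counts per gene do not separate the long and short forms of c-FLIP. Cflar and Casp8 lie next to each other among the tested protein-coding genes of mouse chromosome 1.

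Ripk1, the kinase gene of the TNF receptor complex, was at 88.7, 103 and 85.6 CPM in the LSK-derived libraries, against 60.1, 85.0 and 80.3 CPM in the GMP-derived libraries. The groups did not overlap, but LSK 46 and GMP 11 almost met, and GMP 5 was low. Ripk1 did not pass (log2 fold change 0.30 ± 0.14, interval -0.04 to 0.63, adjusted p = 0.170). Its exons share up to 241 bases with Serpinb6a on the other strand and up to 511 bases with Gm17084 on the same strand.

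Casp2, which encodes an initiator caspase outside the death receptor complexes, was at 141, 164 and 156 CPM in the LSK-derived libraries, against 116, 115 and 119 CPM in the GMP-derived libraries. All LSK-derived libraries were above all GMP-derived ones, and the GMP-derived values differed by little (coefficient of variation 1.86%). Casp2 was 1.32-fold higher in the LSK-derived leukaemias (154 ± 11.7 against 117 ± 2.17 CPM, log2 fold change 0.40 ± 0.07, adjusted p = 0.0103), and the call held in all 11 alternative fits. Cradd, the adaptor gene of the caspase-2 complex, did not pass, with 6.32 ± 0.635 CPM in the LSK-derived leukaemias against 4.26 ± 0.622 CPM in the GMP-derived leukaemias (adjusted p = 0.0589). Lrdd, the table's symbol for Pidd1, had 41.3 ± 2.60 and 36.9 ± 1.54 CPM in the LSK-derived and GMP-derived libraries (adjusted p = 0.185).

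**Figure D2:**
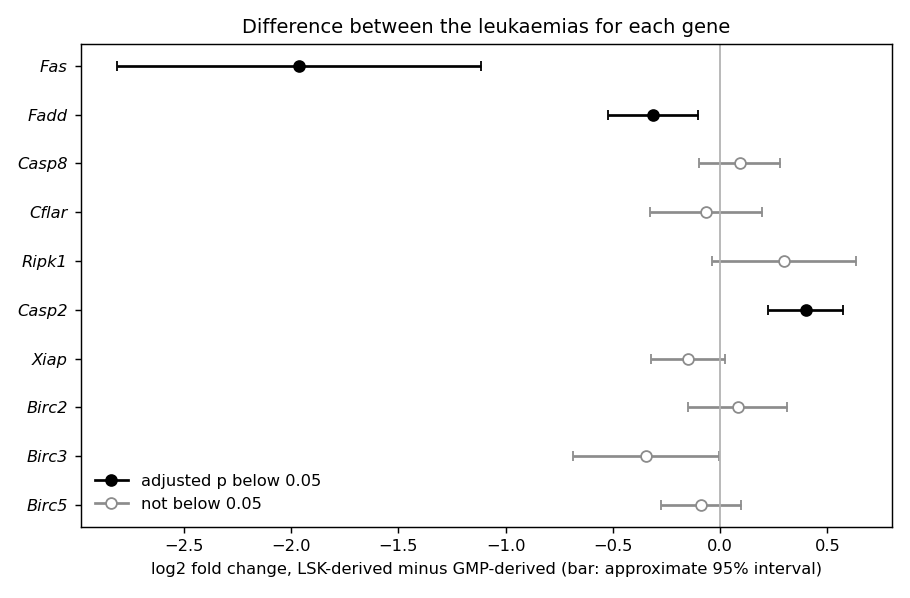
Log2 fold change of each gene (horizontal axis, LSK-derived minus GMP-derived) with an approximate 95% interval, filled where the adjusted p was below 0.05. Fas at -1.96 stands far to the left, Fadd at -0.31 and Casp2 at 0.40 are filled too, and the other 7 lie between Birc3 at -0.34 and Ripk1 at 0.30.

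None of the 4 IAP genes passed, with log2 fold changes from -0.34 for Birc3 to 0.08 for Birc2. Xiap, the caspase inhibitor gene, was at 129, 136 and 122 CPM in the LSK-derived libraries, against 138, 139 and 153 CPM in the GMP-derived libraries. Although the groups did not overlap, the gap between LSK 45 and GMP 5 was narrow, and Xiap did not pass (log2 fold change -0.15 ± 0.07, interval -0.32 to 0.02, adjusted p = 0.179). Birc2, which encodes cIAP1, was at 35.8, 41.4 and 44.5 CPM in the LSK-derived libraries, against 40.0, 37.4 and 37.7 CPM in the GMP-derived libraries. LSK 44 was below all GMP-derived libraries and the other LSK-derived libraries were above them (log2 fold change 0.08 ± 0.10, interval -0.15 to 0.31, adjusted p = 0.576).

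Birc3, which encodes cIAP2 and is the neighbour of Birc2 on mouse chromosome 9, was at 25.6, 34.7 and 25.2 CPM in the LSK-derived libraries, against 35.8, 33.4 and 39.5 CPM in the GMP-derived libraries. LSK 45 fell among the GMP-derived values while LSK 44 and LSK 46 were below them. Birc3 did not pass (log2 fold change -0.34 ± 0.14, unadjusted p = 0.0484, adjusted p = 0.125). Leaving out LSK 45 brought it past the threshold (log2 fold change -0.51, adjusted p = 0.0226), and its other alternatives reached up to 0.326. Birc5, which encodes survivin, was at 132, 114 and 128 CPM in the LSK-derived libraries, against 129, 140 and 129 CPM in the GMP-derived libraries. The values of Birc5 overlapped, with LSK 45 the lowest (log2 fold change -0.09 ± 0.08, interval -0.28 to 0.10, adjusted p = 0.442).

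Within a group, the same libraries tended to sit at the ends for these 10 genes. How often they did so over all tested genes was not counted. LSK 45 was the highest LSK-derived library for 7 of the 10 genes, among them Fas, Birc3, Casp8, Cflar and Ripk1, and the lowest for Birc5. GMP 19 was the highest GMP-derived library for 6 genes, and GMP 11 the lowest for 6. Fadd in the LSK-derived group was the steadiest, with a coefficient of variation of 1.79%.

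Partners that work against or with each other were also compared as count ratios within a library, which need no scaling between libraries. Cflar had 0.437, 0.442 and 0.453 counts per Casp8 count in the LSK-derived libraries, against 0.465, 0.457 and 0.562 in the GMP-derived libraries. The ratio was lower in each LSK-derived library, by a margin that rested on GMP 19: the log2 difference was -0.15 with all libraries and -0.06 without GMP 19. Survivin acts in the chromosomal passenger complex with Aurora B, INCENP and borealin (Aurkb, Incenp and Cdca8). Birc5 had 0.723, 0.692 and 0.698 counts per count of these partners (geometric mean) in the LSK-derived libraries, against 0.803, 0.799 and 0.760 in the GMP-derived libraries. The Birc5 ratio did not overlap between the groups (log2 difference -0.16, or between -0.18 and -0.15 without any 1 library), while none of the 3 partners passed alone (log2 fold changes 0.05, 0.08 and 0.09). Xiap had 2.17, 2.43 and 2.10 counts per count of its antagonists Diablo and Htra2 in the LSK-derived libraries, against 2.56, 2.42 and 3.09 in the GMP-derived libraries. LSK 45 and GMP 11 overlapped in the Xiap ratio (log2 difference -0.26, or -0.16 without GMP 19). Exact two-sided permutation tests gave p = 0.1, 0.1 and 0.2 for the Cflar, Birc5 and Xiap ratios, or 0.15, 0.15 and 0.2 adjusted over the 3 ratios. With 3 libraries against 3, 0.1 is the smallest p the test can give. Exons of Diablo overlap those of Gm49027 on the same strand (up to 626 bases) and of B3gnt4 on the other (up to 759 bases, with 0 mean counts in both groups). Exons of Htra2 overlap those of Aup1 and Loxl3, and exons of Cdca8 those of 9930104L06Rik, on the other strand.

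**Figure D3:**
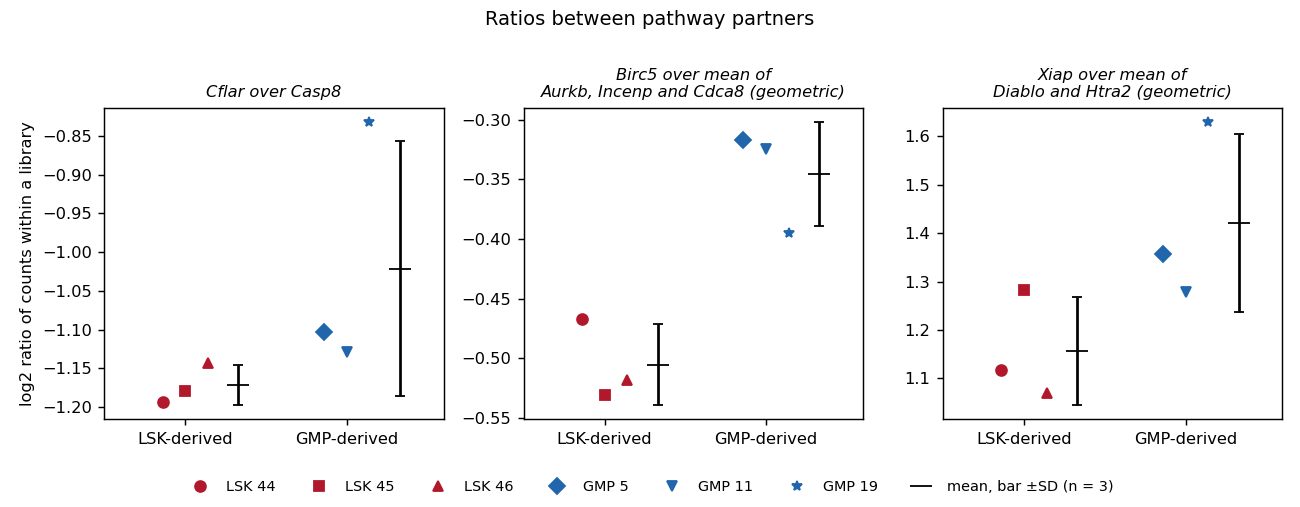
Log2 of the count ratio within each library (vertical axes, each with its own range) for Cflar over Casp8, Birc5 over its 3 partners and Xiap over its 2 antagonists, LSK-derived in red and GMP-derived in blue, with the mean and SD in black. The first ratio is lower in each LSK-derived library, by a narrow margin without GMP 19. The Birc5 ratio separates the groups too, and the Xiap ratio overlaps at LSK 45 and GMP 11.

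The genes differed far more from each other than between the leukaemias. Per kilobase of the longest coding transcript in GENCODE M21, Casp8 had the highest level, at 63.0 ± 5.52 CPM per kb in LSK-derived libraries and 59.1 ± 2.01 CPM per kb in GMP-derived libraries. In the LSK-derived libraries Casp2 (43.6), Birc5 (37.4) and Xiap (18.9 CPM per kb) followed, each apart from its neighbours in the order. Next came Ripk1 (14.3), Birc2 (12.2 CPM per kb), Cflar and Birc3 (9.80 CPM per kb), whose ranges overlapped from each to the next. Fadd (5.71) and Fas (0.727 CPM per kb) closed the order without overlap. By this length, but not by the others tried below, Birc5 and Casp2 changed places between the groups. In the GMP-derived libraries Birc5 (39.8) stood above Casp2 (33.1 CPM per kb), and Xiap came next at 21.0 CPM per kb. Birc3, Ripk1, Birc2 and Cflar (12.4, 11.6, 11.5 and 11.5 CPM per kb) overlapped there, above Fadd (7.09) and Fas (2.86 CPM per kb). Within LSK-derived libraries the highest of the 10 levels was 90.9 ± 19.4 times the lowest. With the coding length in place of the transcript, Birc5 came first in both groups and that span was 292. Fadd (36.3 CPM per kb in LSK-derived libraries) then stood above Birc2 (22.1) and Birc3 (15.8 CPM per kb). With the mean length of the coding transcripts, too, Birc5 stood above Casp2 in both groups (58.2 against 43.6 CPM per kb in LSK-derived libraries). The order of the genes therefore depends on the length used, although Fas was last with each. These levels are descriptions with no test.

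**Figure D4:**
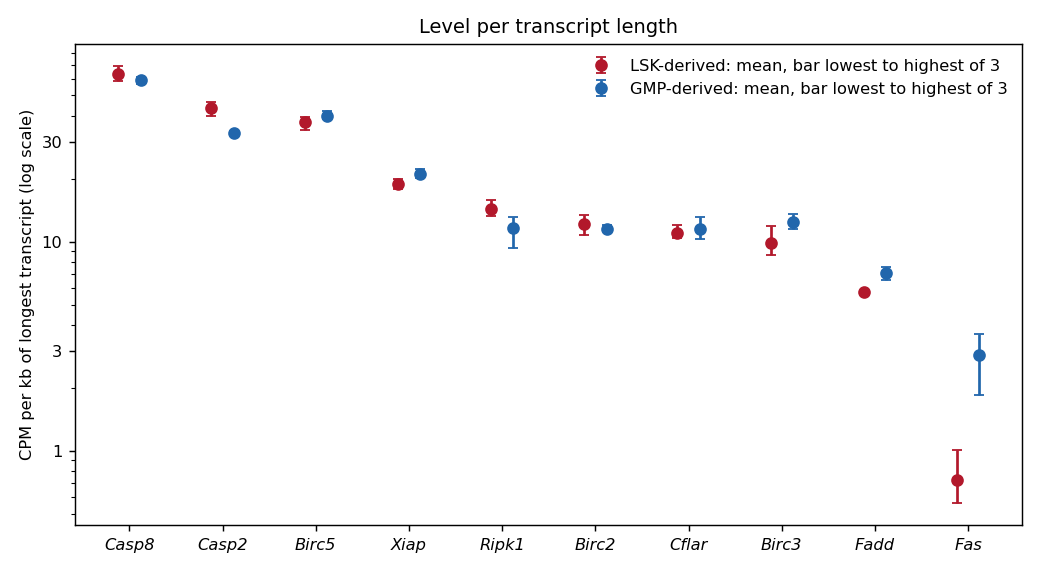
CPM per kilobase of the longest transcript (vertical axis, log scale) for the 10 genes, ordered by their level in the LSK-derived libraries, with the mean and a bar from the lowest to the highest of 3 libraries. Casp8 leads in both groups and Fas is last in both, and the groups differ most at Fas (0.727 against 2.86 CPM per kb).

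Other genes of these pathways were read from 8 lists holding 91 names, of which 88 had a row and 82 were tested. Of the 82, 8 were higher and 17 were lower in the LSK-derived libraries and 57 did not pass, with a median log2 fold change of -0.06 against 0.01 over all tested genes. Over all tested genes 11.8% were higher and 13.9% lower. The count of higher genes among the 82 was 2 without LSK 44, 5 without LSK 45, 2 without LSK 46, 4 without GMP 11 and 3 without GMP 19, and that of lower genes was 7 without LSK 44 and 11 without LSK 46. The counts over all tested genes fell as well, to 857 higher and 973 lower of 13712 without LSK 44. Without LSK 46 they were 770 higher and 980 lower of 13696, against 1577 and 1867 of 13406 with all libraries. Among IAP relatives and antagonists, 1 of 9 tested was higher and 3 were lower (median -0.20). Naip2, a receptor for bacterial proteins that carries the IAP fold, was 1.72-fold lower (54.3 ± 8.05 against 93.3 ± 1.08 CPM, adjusted p = 0.00388). Naip1 was lower at a level under 1 CPM (adjusted p = 0.00986), and the Naip genes are close copies, so their reads are uncertain. Birc6, which encodes a giant ubiquitin-conjugating IAP, was 1.22-fold lower (237 ± 3.68 against 288 ± 22.6 CPM, adjusted p = 0.0324), a call that held in only 1 of 6 fits without a library, that without GMP 19. Diablo, the SMAC gene, was at 45.5, 48.3 and 44.2 CPM in the LSK-derived libraries, against 39.4, 35.4 and 30.4 CPM in the GMP-derived libraries. It was 1.31-fold higher (adjusted p = 0.0379), and of the fits without a library only that without GMP 5 kept the call (0.0115 to 0.101 over all its alternatives).

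Of 11 death ligand and receptor genes tested, 1 was higher, 4 were lower and 6 did not pass (median -0.50). Tnfrsf22 and Tnfrsf23, which encode decoy receptors for the ligand TRAIL in the mouse, were lower, Tnfrsf22 at 10.2 ± 1.24 against 22.1 ± 1.58 CPM (adjusted p = 0.00192) and Tnfrsf23 at 2.06, 3.85 and 1.17 CPM against 7.13, 9.83 and 22.6 CPM (adjusted p = 0.0276). Tnfrsf23 lost its call without LSK 44 (0.0989), LSK 46 (0.0802) or GMP 19 (0.0550) and with no filter (0.0644). The 2 genes are close copies, so the split of reads between them is uncertain. Ltbr, the lymphotoxin receptor gene, was 1.42-fold lower (62.0 ± 4.12 against 87.8 ± 9.88 CPM, adjusted p = 0.0133), but not past the threshold without LSK 44 (0.0547) or LSK 46 (0.0574). Tnfsf12, the ligand gene TWEAK, was lower at 0.862 ± 0.0480 against 2.00 ± 0.731 CPM (adjusted p = 0.0330), and Tnfrsf12a, the gene of its receptor, was higher at 3.34 ± 0.619 against 1.73 ± 0.435 CPM (adjusted p = 0.0402). Tnfrsf1a, the main TNF receptor gene, did not pass, at 79.2 ± 11.8 CPM in LSK-derived against 119 ± 27.2 CPM in GMP-derived cells (adjusted p = 0.0594). Tnfrsf10b, the TRAIL receptor gene, had 5.86 ± 0.956 CPM in LSK-derived against 5.95 ± 1.15 CPM in GMP-derived cells (adjusted p = 0.964). The count of lower genes was 1 without LSK 44, 1 without LSK 46 and 2 without GMP 19. Of the fits without a library only that without GMP 11 kept the calls of Tnfsf12 and Tnfrsf12a (up to 0.102 and 0.128 in the others). Tnfsf12 also lost its call in limma voom, and its exons share up to 254 bases with Tnfsfm13 on the same strand.

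Most adaptors and ubiquitin enzymes of the death complexes did not pass. Of 24 tested, 1 was higher and 2 were lower (median -0.09). Ikbkb, a kinase gene of NF-kB signalling, was 1.35-fold higher (126 ± 6.79 against 93.0 ± 6.07 CPM, adjusted p = 0.00865) and was so called in all 11 alternative fits. Traf5 was lower (1.53 ± 0.373 against 3.92 ± 0.731 CPM, adjusted p = 0.0119; 0.0525 without LSK 44), as was Faim, a gene that counters Fas-induced death (27.5 ± 0.882 against 35.0 ± 3.91 CPM, adjusted p = 0.0437). Of the fits without a library, Faim was called only in that without GMP 11, with an adjusted p of up to 0.142 in the others, 0.0569 in limma voom and 0.0595 with upper-quartile scaling. Without LSK 44 neither of these lower genes was called, and without LSK 45, LSK 46, GMP 5 or GMP 19 only Traf5 of them was. Of the non-canonical NF-kB genes that cIAPs hold in check, 0 of 3 passed in edgeR, DESeq2 or limma voom, with 0 at an unadjusted p below 0.05 in edgeR. Nfkb2, the gene of the precursor processed in that branch, had 16.5 ± 0.276 CPM in LSK-derived against 14.5 ± 2.58 CPM in GMP-derived cells (adjusted p = 0.403). Map3k14, the gene of the kinase NIK, had 8.90 ± 1.22 against 7.83 ± 1.94 CPM (adjusted p = 0.560).

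Of 5 necroptosis genes tested, 1 was higher, 3 were lower and Ppm1b, a phosphatase gene, was not called (adjusted p = 0.290, log2 fold change -0.12 ± 0.07). Mlkl, whose product breaks the plasma membrane, was 1.99-fold higher, at 127, 123 and 163 CPM in the LSK-derived libraries, against 75.2, 61.8 and 70.4 CPM in the GMP-derived libraries. Ripk3, the kinase gene upstream of it, was 1.33-fold lower, at 69.8, 60.3 and 74.6 CPM in the LSK-derived libraries, against 99.6, 88.5 and 84.1 CPM in the GMP-derived libraries. The groups overlapped for neither gene. Mlkl (log2 fold change 1.00 ± 0.13, adjusted p = 0.00308) was called in all 11 alternative fits, and Ripk3 (-0.41 ± 0.10, adjusted p = 0.0287) lost its call without LSK 44 (0.0846), LSK 45 (0.0634), GMP 5 (0.0551) or GMP 11 (0.0631), in a range from 0.00335. Ticam1, the TRIF adaptor gene of Toll-like receptors, was 1.62-fold lower (22.6 ± 1.29 against 36.6 ± 4.32 CPM, adjusted p = 0.00555). Zbp1, a nucleic acid sensor gene, was at 1.51, 2.87 and 1.54 CPM in the LSK-derived libraries, against 12.1, 4.19 and 6.95 CPM in the GMP-derived libraries (adjusted p = 0.0228; 0.0877 without LSK 44, 0.0880 without LSK 46 and 0.0546 without GMP 19). Without LSK 44 only 1 of the 5 was lower.

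Among mitosis genes, 2 of 20 tested were higher (Mad2l1 and Cdk1), 2 were lower (Mki67 and Bub1b) and 16 did not pass, with a median of 0.05. Without LSK 44 none of them was called, without LSK 46 or GMP 11 the count of 1 direction was 0, and without GMP 19 1 was higher. Mki67, the proliferation marker gene, was at 547 ± 48.3 against 702 ± 34.2 CPM (adjusted p = 0.0216) and Mad2l1, a spindle checkpoint gene, at 178 ± 12.6 against 133 ± 12.1 CPM (adjusted p = 0.0177). Bub1b, another spindle checkpoint gene, was at 206 ± 8.65 against 250 ± 1.72 CPM (adjusted p = 0.0172), and Cdk1, the mitotic kinase gene, at 250 ± 17.4 against 207 ± 11.5 CPM (adjusted p = 0.0446). Of 5 caspase and apoptosome genes downstream, Apaf1, Casp9 and Casp6 were lower (log2 fold changes -0.72, -0.83 and -0.71, adjusted p = 0.00163, 0.00253 and 0.00722), and in every fit without a library as well. They stand for the apoptosome scaffold, its initiator caspase and an executioner caspase. Of 5 genes listed with the caspase-2 complex, 1 was higher: Nol3, which encodes a caspase inhibitor, at 0.873 ± 0.211 against 0.388 ± 0.0732 CPM (adjusted p = 0.0385). Nol3 lost its call in all 6 fits without a library (up to 0.126), with DESeq2 (0.142) and with no filter (0.0719), and its exons overlap those of 4931428F04Rik.

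**Figure D5:**
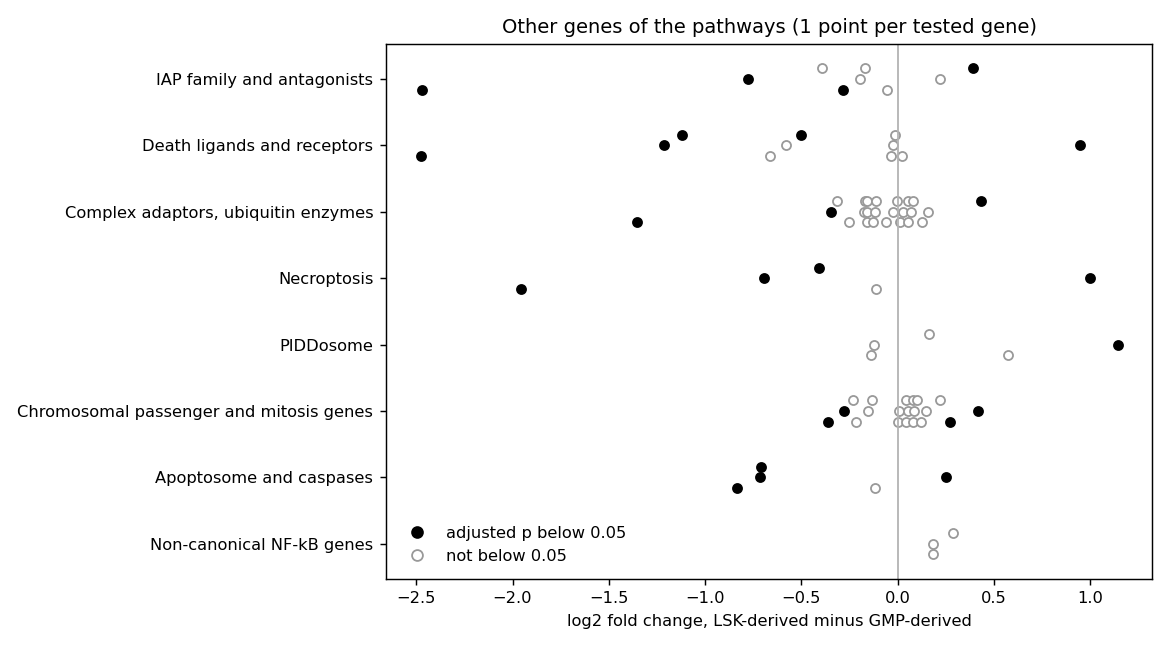
Log2 fold change (horizontal axis, LSK-derived minus GMP-derived) of each of the 82 other pathway genes tested, by list, filled where the adjusted p was below 0.05. Most points lie near 0. Nol3 (1.14) and Mlkl (1.00) lie farthest to the right, and Tnfrsf23 (-2.48) and Naip1 (-2.47) farthest to the left.

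Among the genes whose log2 CPM ran most like that of Fas over the 6 libraries was Nrd1 (Pearson r = 0.996). For Fadd it was Acp6 (r = 0.998), and for Casp2 Foxo4 (0.997) and Agbl5 (0.994). They were taken from up to 8897 genes with a mean of at least 10 CPM, of which 392, 275 and 176 had r above 0.95 with Fas, Fadd and Casp2. The libraries fall into 2 groups of 3, so any gene with a steady difference in the same direction scores high, whatever its size. Nrd1 was at 240 ± 6.49 CPM in the LSK-derived against 277 ± 9.57 CPM in the GMP-derived libraries, a far smaller difference than that of Fas.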

How the data were processed

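Per the labels' protocols, TRIzol was used for the RNA and a TruSeq RNA kit for the libraries. The authors deposited raw read counts per gene symbol, 1 column per library, with no normalization. Per the submitters' processing notes, which name them with no role or order, the build was mm9 and the tools included DESeq2, HTSeq 0.6.1 and STAR 2.4. Annotation and strand setting: not given in the sources used here, so reads of antisense or overlapping genes may be assigned to either.

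Differences were fitted to these counts by edgeR 4.0.16 (R 4.3.3) with filterByExpr, TMM scaling, glmQLFit with robust estimation, glmQLFTest on all 6 libraries with no covariate, and called at a Benjamini-Hochberg adjusted p below 0.05. CPM divides counts by a library's TMM-scaled total over tested genes. The approximate SE is the size of a log2 fold change over the root of its F statistic, and intervals use the test's degrees of freedom. Ratios add 0.5 to each count. The steps were tested on simulated counts. Alternatives were DESeq2 1.42.0, limma voom 3.58.1, other scalings, no filter, and leaving out each library, where a pair is assumed to vary like the other groups.

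All 10 genes were named. From each list up to 6 called genes by smallest p were to be named, or else the 2 most abundant; any further gene was picked with its values in view. Some genes that the rule names are not reported here. The members and lists were chosen with earlier results of these data known. Transcript lengths, exon overlap, gene order and promoters came from GENCODE M21 and RefSeq on GRCm38, another build than that of the counts. A count of 0 allows 3 counts, which covers counting error only.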

Additional observations from a re-analysis of the deposited data

How the results depend on the processing

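The number of genes called was 3444 and lay between 1750 (without LSK 46) and 3467 (without GMP 5) when a library was left out. Of the 10 genes, 3 were called, and between 2 and 3 were in the fits without a library. The count of lower genes was 2, and lay between 1 and 2 in those fits, the change being Fadd, save without LSK 45, where Fadd lost its call and Birc3 gained it. It was 1 with upper-quartile scaling and 1 with no filter on low counts. The count of higher genes was 1 in all. Over 110 refits of the 10 genes under 11 settings, 101 kept direction and call, 7 lost a call (Fadd each time), 1 gained a call and 1 turned sign: Cflar, whose log2 fold change lay between -0.14 (without GMP 11) and 0.041 (without GMP 19) in the fits without a library. The ratios kept their direction in all settings. The span of levels per length was 292 with the coding length. The median shift of all genes' log2 fold changes was at most 0.026 in size under upper-quartile and DESeq2 scaling. The cause was not tested. Fas had 73 counts in all LSK-derived libraries, the fewest of the 10 genes, and its coefficient of variation was 33.5% there and 32.0% in the GMP-derived libraries, which had 388 counts. No paired analysis was possible because the library numbers of the groups share no value.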

Other observations

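The nearest tested protein-coding genes around Fas on mouse chromosome 19 were looked up after the value of Acta2, its neighbour, had been seen. Acta2, the smooth muscle actin gene, had 5, 8 and 11 counts in LSK 44, LSK 45 and LSK 46, against 126, 123 and 172 counts in GMP 5, GMP 11 and GMP 19. Its mean was 0.358 ± 0.0868 CPM in the LSK-derived leukaemias against 4.62 ± 0.841 CPM in the GMP-derived ones (log2 fold change -3.66 ± 0.29, edgeR adjusted p = 0.000657). Stambpl1, a deubiquitinase gene on the same side, was lower too (log2 fold change -0.74 ± 0.11, adjusted p = 0.00485), as was Lipa, the lysosomal acid lipase gene on the other side (49.6 ± 1.76 against 69.8 ± 4.05 CPM, adjusted p = 0.00494). Ifit2, an interferon-induced gene beyond Lipa, had 6.71, 8.67 and 8.08 CPM in the LSK-derived libraries, against 11.2, 9.05 and 12.8 CPM in the GMP-derived libraries, and did not pass (adjusted p = 0.0853). In each of these 4 genes the groups did not overlap, with the LSK-derived libraries wholly lower, as for 22.8% of all tested genes. The 4 genes were picked after their values were seen and are given with no test of the neighbourhood.

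Around Fadd on chromosome 7 the neighbours differed in both directions. Cttn, which encodes the actin-binding protein cortactin, had 0.907, 0.118 and 0.375 CPM in the LSK-derived libraries, against 50.7, 48.2 and 36.1 CPM in the GMP-derived libraries (adjusted p = 0.000657). Ccnd1, the cyclin D1 gene, was higher, at 4.18 ± 0.325 CPM in LSK-derived against 1.47 ± 0.496 CPM in GMP-derived cells (adjusted p = 0.0123).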
